A study of Mus musculus with 39 samples.

Results

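Zinc finger genes named Zfp and a number were located on mouse chromosomes 7 and 13, and each gene was assigned by its midpoint to a nucleosome wrapping domain (NRD) and to a replication timing (RT) domain of ES cells. Of 21938 protein-coding genes in the mm10 annotation, 120 had such a symbol on these chromosomes, 89 on chromosome 7 and 31 on chromosome 13. A member was called clustered when another member lay under 200 kb away, measured between gene bodies, and single otherwise. There were 99 clustered members, 76 on chromosome 7 and 23 on chromosome 13, and 21 single members, 13 on chromosome 7 and 8 on chromosome 13. The distance threshold separated few members narrowly. The clustered member with the widest gap was Zfp629 at 158 kb, and the single member with the narrowest gap was Zfp808 at 218 kb.

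Both domain lists came from wild-type R1 cells, a single line of mouse ES cells, grown without a treatment for these libraries. In H3-wrapping-seq, crosslinked chromatin was cut with MNase, nucleosomes were pulled down with an antibody against histone H3, and the lengths of the DNA fragments were read by paired-end sequencing. There were 4 such libraries from 2 experiments. The wrapping index (NRI) compares fragments of 140 to 250 bp with fragments of 50 to 140 bp in 100 kb bins, as a z-score without a unit. Domains with a positive NRI are tightly wrapped (TiNRDs) and domains with a negative NRI are loosely wrapped (LoNRDs). For RT, cells took up BrdU for 2 h, 4 stages of S phase (S1 to S4) were collected by sorting, and the labelled DNA gave 8 libraries from 2 experiments. The RT value is the log2 ratio of the early to the late fractions, positive in early and negative in late domains. The lists held 632 TiNRDs, 611 LoNRDs, 832 early and 979 late RT domains. Each list is a single call that names no library, so all genes of a domain carry 1 value, the depth behind it is unknown, and no spread between replicates was computed. Tracks of single experiments were not analysed here.

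Most of these genes encode C2H2 zinc finger proteins. Each finger is folded around a zinc ion held by a pair of cysteines and a pair of histidines and reads a few bases of DNA, so that an array of fingers recognises a longer sequence. In mammals many carry a KRAB box at the amino end, which recruits the corepressor Trim28 and through it Setdb1, HP1 proteins and DNA methylation. KRAB zinc finger genes are known to arise by tandem duplication, to lie in clusters on a few chromosomes, and to silence transposable elements in ES cells and early embryos. A search of the translated coding sequence for the pattern C-X2-C-X12-H-X3-5-H, where X is any residue, counted at least 3 fingers in 113 of the 120 members and in 583 of all protein-coding genes. The members had a median of 11 fingers, with 12 among clustered and 9 among single members.

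The zinc finger genes lay mostly in tight and, with few exceptions, in early domains. Of the 120 members, 100 (83.3%) had their midpoint in a TiNRD, where 77.8% of all protein-coding genes with an NRD call did, and the share of the members was close to this background. The other 20 members lay in 3 LoNRDs with an NRI between −0.30 and −0.21, close to the 0 that divides the kinds. RT was called for 116 members, of which 114 (98.3%) were in early domains, against 76.6% of all protein-coding genes with an RT call. Their median RT was 1.27 on the log2 scale, and the median over all protein-coding genes was 0.97. The median NRI was 0.96 for the members and 0.74 for all protein-coding genes. Since genes of a domain share its value, these medians rest on 24 NRDs and 26 RT domains.

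The calls of the lists corresponded, as TiNRD with early or LoNRD with late, for 98 of 116 members (84.5%), and for 85.3% of all protein-coding genes with both calls. Among the members, 96 were in TiNRD and early domains, 18 in LoNRD and early domains and 2 in LoNRD and late domains, and 0 in TiNRD and late domains. The class of LoNRD with early held 15.5% of the members and 6.44% of all protein-coding genes. TiNRD with early held 82.8% of the members and 70.3% of all protein-coding genes, LoNRD with late 1.72% and 14.9%, and TiNRD with late 0% and 8.28%. Of the 18 members in LoNRD and early domains, 15 belonged to a single run on chromosome 13. Without that run of 19 genes, which was left out after seeing the data because most of it is in this class, 3 of 97 members (3.09%) were in LoNRD and early domains.

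**Figure D1:**
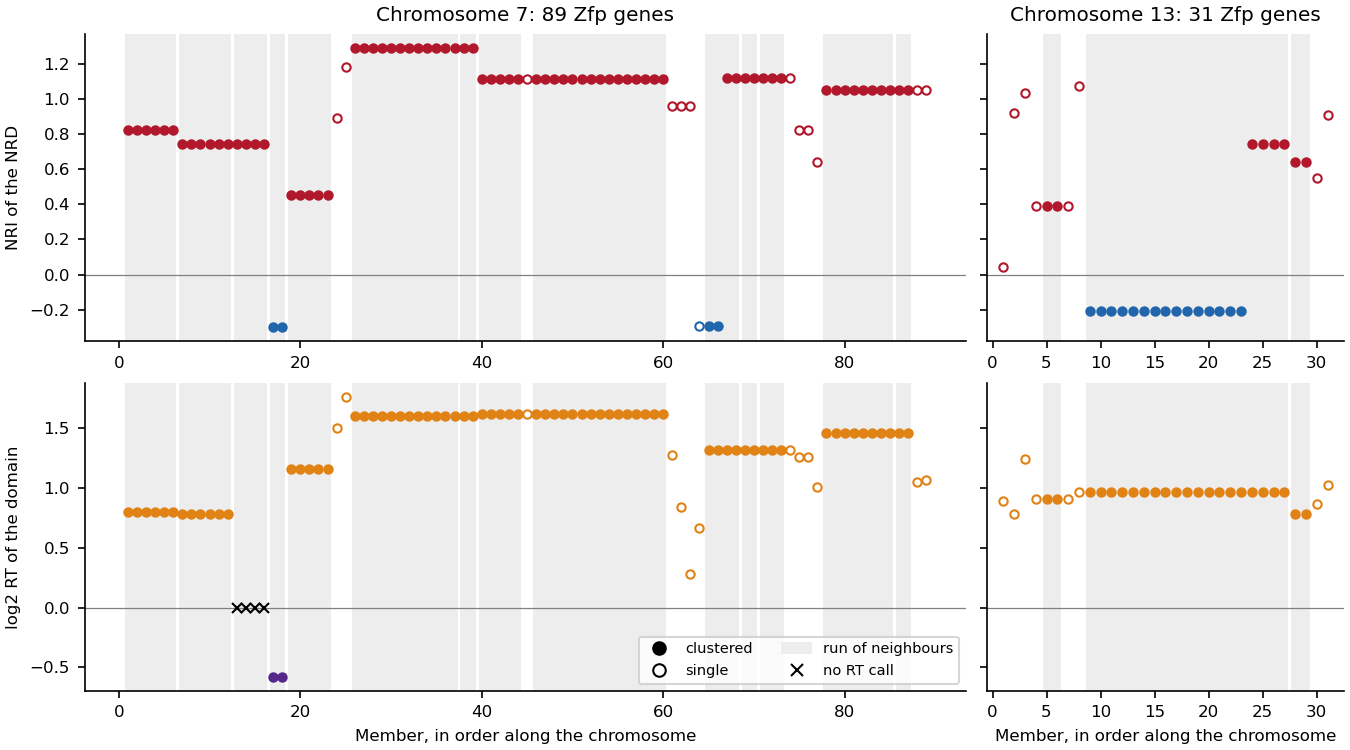
NRI of the NRD (upper panels, no unit) and log2 RT of the RT domain (lower panels) for the 89 members of chromosome 7 and the 31 members of chromosome 13, in order along the chromosome, with filled circles for clustered and open circles for single members and grey bands for runs of neighbours. Red and blue mark TiNRDs and LoNRDs, orange and purple early and late domains, and crosses the 4 members with no RT call. The row of 15 blue circles on chromosome 13 at −0.21 has an RT of 0.97 below it.

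The share of clustered members in TiNRDs was not the same on both chromosomes. Of the clustered members 80 of 99 (80.8%) were in TiNRDs, and of the single members 20 of 21 (95.2%). On chromosome 7 the shares were 72 of 76 clustered members (94.7%) and 12 of 13 single members (92.3%). On chromosome 13 they were 8 of 23 clustered members (34.8%) and 8 of 8 single members. Among the other genes of the same chromosomes, 79.0% on chromosome 7 and 65.8% on chromosome 13 were in TiNRDs. Of the 19 clustered members in LoNRDs, 15 were in 1 run on chromosome 13. With that run left out, a choice made after seeing the data and because of its LoNRD calls, 76 of 80 clustered members (95%) lay in TiNRDs. In RT, 93 of 95 clustered members (97.9%) and 21 of 21 single members were early. The median RT was 1.32 for clustered and 1.03 for single members on the log2 scale, and the median NRI was 1.05 and 0.92. The order of the NRI medians differed between the chromosomes, with 1.11 for clustered and 0.96 for single members on chromosome 7, and −0.21 and 0.73 on chromosome 13.

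**Figure D2:**
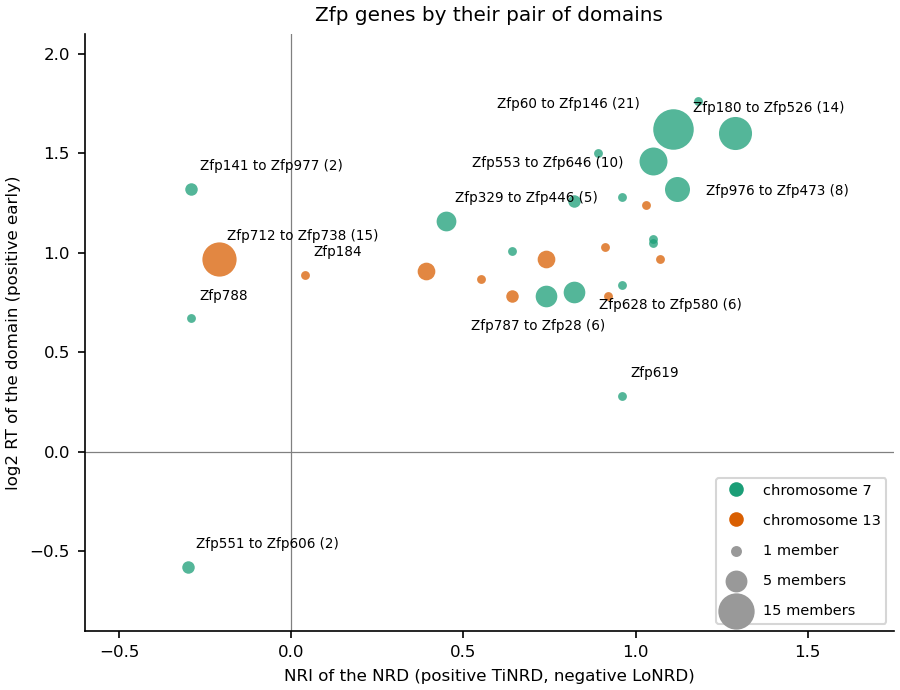
NRI of the NRD (horizontal, no unit) against log2 RT of the RT domain (vertical) for the 116 members with both calls, with 1 circle for each pair of domains, its area proportional to the number of members. Labels name the first and last member of pairs with 5 or more members and of pairs near or left of 0 on either axis, with the number of members in brackets. The lower right part, TiNRD with late, is empty, and the largest circle left of 0 is the pair with Zfp712 to Zfp738.

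Chained by gaps under 200 kb, the clustered members formed 17 runs, 6 of 2 members and 11 of 3 or more. All members of a run were in the same RT domain in 16 runs, and 1 run had no RT call. All members were in the same NRD in 15 runs, and 2 runs were divided between a pair of NRDs. Wholly in TiNRDs were 14 runs and wholly in a LoNRD 1 run, while 15 runs were wholly early and 1 was wholly late. No gene body crossed a border of either list (0 of 120), and 11 members lay under 100 kb from an NRD border and 1 from an RT border. No RT border fell inside any of the 16 runs with an RT call, while an NRD border fell inside 2 of the 17.

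The longest run was on chromosome 13, from Zfp712 to Zfp273 (chr13:67038596-67827002), and it was the main departure from the tight and early pattern. It held 19 members in 788 kb, 15 of them on the minus strand. The first 15, Zfp712 to Zfp738, lay in a LoNRD of 700 kb (chr13:67000001-67700000) with an NRI of −0.21. The last 4, Zfp65, Zfp85, Zfp493 and Zfp273, lay in the TiNRD to the right of it (chr13:67700001-68900000), with an NRI of 0.74. The RT list had no border between them, and the 19 members shared an early domain of 2900 kb (chr13:65100001-68000000) with a log2 RT of 0.97, which covered the whole 700 kb of the LoNRD.

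The border of the NRD list fell between Zfp738, which ended 12.9 kb before it, and Zfp65, which began 5.31 kb after it. NRI was computed in bins of 100 kb and smoothed over 10 bins, so the position of a border cannot be read more finely than the bins. The NRI of −0.21 was small in size, at rank 108 of 611 LoNRDs counted from the value nearest to 0. To the left, the LoNRD adjoined a TiNRD with an NRI of 1.07, which held the single member Zfp369, whose product, also called NRIF2, was described as a binding partner of the neurotrophin receptor p75NTR. The RT domain ended 300 kb to the right of the NRD border and was followed by a late domain with a log2 RT of −0.59.

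The LoNRD of chromosome 13 was filled with zinc finger genes. Of its 26 protein-coding genes, 22 (84.6%) had at least 3 fingers, the 15 members and 7 others, which include Rsl1, Rslcan18, Zfp874a, Zfp874b, Zfp729a and Zfp729b. Rsl1, a KRAB zinc finger gene known for repressing male-specific genes in the liver, lay between Zfp759 and Zfp455. The TiNRD to its right held 4 such genes among 10 (40.0%). In the LoNRD the fingers of the members ranged from 3 in Zfp459 to 23 in Zfp748, with a median of 16. The members at the ends, Zfp712 and Zfp738, each had 20. The 4 members beyond the border had 9 (Zfp65), 14 (Zfp85), 11 (Zfp493) and 15 (Zfp273) fingers.

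**Figure D3:**
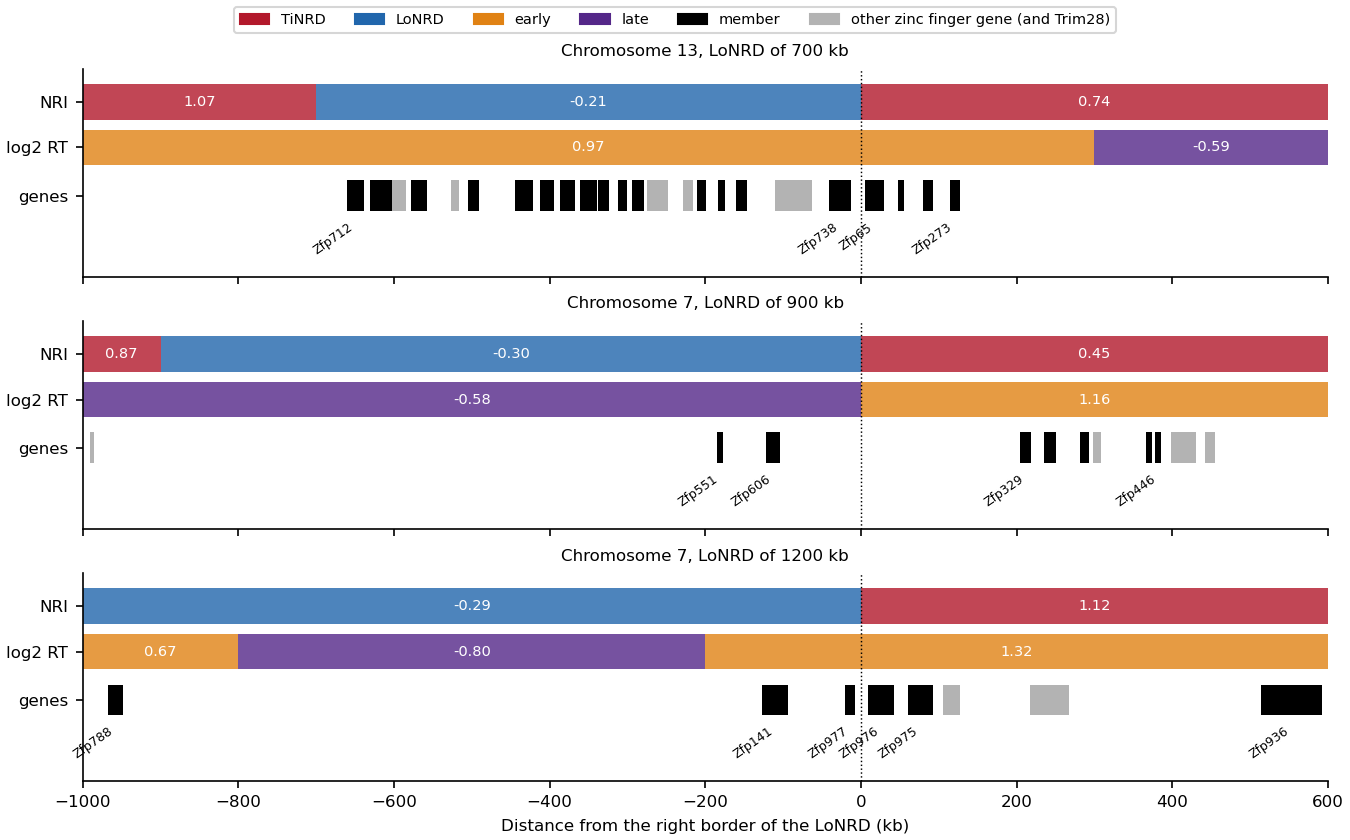
Maps of the 3 LoNRDs that hold members, as distance in kb from their right border (dotted line), with the NRD list in the upper bar, the RT list in the lower bar (value of each domain printed in it) and gene bodies below. Black boxes are members and grey boxes other genes with at least 3 fingers, and Trim28. The maps are cut on both sides. The left end of the 1200 kb LoNRD of chromosome 7 and its 3 other genes with at least 3 fingers are therefore not drawn. On chromosome 13 (top) the early domain of 0.97 spans the LoNRD and the border, on chromosome 7 at Zfp606 (middle) both lists change at the same position, and at Zfp977 (bottom) the early domain of 1.32 begins 200 kb left of the NRD border.

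A second run was divided on chromosome 7. Zfp141, Zfp977, Zfp976 and Zfp975 (chr7:42473386-42692742) all lay on the minus strand and in 1 early domain (chr7:42400001-47200000) with a log2 RT of 1.32. Zfp141 and Zfp977 were in a LoNRD of 1200 kb (chr7:41400001-42600000) with an NRI of −0.29, and Zfp976 and Zfp975 were in a TiNRD (chr7:42600001-47600000) with an NRI of 1.12. Zfp977 ended 7.45 kb before the border and Zfp976 began 9.53 kb after it. The LoNRD was early over 600 kb and late over 600 kb, the late stretch lying in the middle with a log2 RT of −0.80.

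The same LoNRD held Zfp788, the only single member outside TiNRDs (1 of 21). Zfp788, with 23 fingers, was in an early domain of 500 kb (chr7:41300001-41800000) with a log2 RT of 0.67. Its nearest member was 822 kb away, but other genes with at least 3 fingers were its neighbours, and when any such gene within 200 kb made a member clustered, a definition chosen after seeing the data, Zfp788 counted as clustered and 18 of 18 single members were in TiNRDs. The LoNRD had 14 protein-coding genes, of which 6 had at least 3 fingers and 5 encoded vomeronasal receptors.

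The pair Zfp551 and Zfp606 (chr7:12415153-12496235) was the only late run. Both were in a LoNRD of 900 kb (chr7:11700001-12600000) with an NRI of −0.30 and in a late domain (chr7:9850001-12600000) with a log2 RT of −0.58, and each had 13 fingers. Of the 16 protein-coding genes of the LoNRD, 13 encoded vomeronasal receptors. The late domain held 9 other genes with at least 3 fingers, Zik1 and 8 named Zscan4, a family known for its expression in embryos at the 2-cell stage and in rare ES cells. The NRD and RT lists had a border at the same position to the right of this pair, and the next run, Zfp329 to Zfp446, lay beyond it in a TiNRD (NRI 0.45) and an early domain (log2 RT 1.16).

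The promoter windows on both sides of the divided runs are shown to compare neighbours that fell in different kinds of domain, and those of the late pair because they are the only late members. They are RefSeq windows of GRCm38.p6, from 250 bases before to 50 bases after the start, printed 5′ to 3′ along the gene with CpG in capitals. A window under 1000 bp from the start of the gene was found for 95 of the 120 members. Zfp738 had no such window, and Zfp748, the member before it, is shown for the left side of the chromosome 13 border. Zfp748 ended 146 kb before that border, with Zfp729b, Gm49345, Zfp729a and Zfp738 in between. The window of Zfp748 lay 678 bp from the start of the gene and that of Zfp551 260 bp. Those of Zfp65, Zfp977, Zfp976 and Zfp606 lay at 0 to 16 bp, so the windows are not all at the same kind of position.
Zfp748 (chr13:67553103-67553402, minus strand): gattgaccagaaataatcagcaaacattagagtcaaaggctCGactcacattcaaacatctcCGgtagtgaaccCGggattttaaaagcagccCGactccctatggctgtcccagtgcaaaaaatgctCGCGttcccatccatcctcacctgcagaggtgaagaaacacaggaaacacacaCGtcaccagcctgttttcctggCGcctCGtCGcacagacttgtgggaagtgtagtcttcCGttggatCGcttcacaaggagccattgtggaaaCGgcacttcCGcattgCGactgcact
Zfp65 (chr13:67729124-67729423, minus strand): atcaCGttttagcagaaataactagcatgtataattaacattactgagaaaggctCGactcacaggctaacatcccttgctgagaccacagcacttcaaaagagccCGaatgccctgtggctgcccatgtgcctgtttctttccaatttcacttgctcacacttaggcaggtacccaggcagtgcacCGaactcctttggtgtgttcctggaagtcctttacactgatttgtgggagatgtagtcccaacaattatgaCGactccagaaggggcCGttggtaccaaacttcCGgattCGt
Zfp977 (chr7:42592496-42592795, minus strand): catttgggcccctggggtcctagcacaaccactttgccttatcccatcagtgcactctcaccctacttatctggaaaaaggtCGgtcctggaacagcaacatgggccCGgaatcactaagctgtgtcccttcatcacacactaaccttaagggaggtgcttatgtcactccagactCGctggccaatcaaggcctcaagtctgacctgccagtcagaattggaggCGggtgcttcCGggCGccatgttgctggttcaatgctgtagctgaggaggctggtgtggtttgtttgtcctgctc
Zfp976 (chr7:42642555-42642854, minus strand): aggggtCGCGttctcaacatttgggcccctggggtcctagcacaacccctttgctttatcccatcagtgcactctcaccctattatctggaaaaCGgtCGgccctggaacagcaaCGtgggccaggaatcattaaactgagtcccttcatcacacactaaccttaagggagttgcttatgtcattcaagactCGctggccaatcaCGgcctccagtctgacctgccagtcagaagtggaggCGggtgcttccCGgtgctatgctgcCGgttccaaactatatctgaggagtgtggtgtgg
Zfp551 (chr7:12422442-12422741, minus strand): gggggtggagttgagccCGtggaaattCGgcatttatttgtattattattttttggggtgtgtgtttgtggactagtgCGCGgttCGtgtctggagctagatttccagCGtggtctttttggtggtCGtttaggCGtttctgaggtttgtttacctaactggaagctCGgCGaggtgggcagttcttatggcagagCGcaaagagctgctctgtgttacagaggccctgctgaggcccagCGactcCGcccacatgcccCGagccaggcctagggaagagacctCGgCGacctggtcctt
Zfp606 (chr7:12478055-12478354, plus strand): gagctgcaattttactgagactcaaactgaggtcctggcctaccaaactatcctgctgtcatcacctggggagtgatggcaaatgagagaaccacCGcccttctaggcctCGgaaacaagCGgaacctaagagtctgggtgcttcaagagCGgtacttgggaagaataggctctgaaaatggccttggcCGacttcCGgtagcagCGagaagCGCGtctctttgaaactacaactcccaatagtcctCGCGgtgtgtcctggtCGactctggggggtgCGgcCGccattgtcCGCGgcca

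The windows of Zfp977 and Zfp976 shared a stretch of 31 identical bases, and those of Zfp748 and Zfp65 one of 16, while the longest stretch shared by the late pair Zfp551 and Zfp606 was 7 bases. In the other 12 pairs of these 6 windows the longest shared stretch was 7 to 9 bases. CpG was found 15 and 8 times in the windows of Zfp748 and Zfp65, 6 and 10 times in those of Zfp977 and Zfp976, and 16 times in each window of the late pair. At least 1 CpG (letters CG, the same on both strands) was present in 94.6% of all 32851 RefSeq windows of this length, the median over all these windows was 7, and the median over the protein-coding genes matched to a window under 1000 bp from their start was 16. The CpG number did not separate the LoNRD side from the TiNRD side in the same direction at both borders.

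Tight and early runs of chromosome 7 held most of the clustered members. The highest NRI of any member, 1.29, belonged to a TiNRD of 2000 kb (chr7:23900001-25900000) with 14 members, the run of 12 from Zfp180 to Zfp575 and the pair Zfp574 and Zfp526. They shared an early domain with a log2 RT of 1.60. The TiNRD with the most members was chr7:26700001-32600000, with an NRI of 1.11 and a log2 RT of 1.62 for its 21 members. These were the run of 5 from Zfp60 to Zfp850, the run of 15 from Zfp84 to Zfp146, and the single gene Zfp36. Zfp568, which was chosen for its known role and after its values were seen, is part of the run of 15 and encodes a KRAB protein known to repress a placental transcript of Igf2.

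In the distal part of chromosome 7, the run of 8 from Zfp553 to Zfp629 and the pair Zfp668 and Zfp646 were in the longest NRD with members, a TiNRD of 20700 kb with an NRI of 1.05, and in an early domain with a log2 RT of 1.46. Zfp646 had 27 fingers, the most of any clustered member. To the right of the divided run of chromosome 7, the pair Zfp936 and Zfp715 and the run of 3 from Zfp658 to Zfp819 lay in the TiNRD of 1.12 and the early domain of 1.32 that also held Zfp976 and Zfp975.

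Near the proximal end of chromosome 7 the values were lower. The run of 6 from Zfp628 to Zfp580 had an NRI of 0.82 and a log2 RT of 0.80, and the run of 6 from Zfp787 to Zfp28 an NRI of 0.74 and a log2 RT of 0.78. The run of 4 from Zfp954 to Zfp772, with Zfp773 and Zfp418 between, was in the same TiNRD of 0.74, but no RT domain was called at its midpoints, and these were the only members (4 of 120) without an RT call. The run of 5 from Zfp329 to Zfp446 had the lowest NRI of a TiNRD with members on chromosome 7, 0.45. On chromosome 13 the pair Zfp935 and Zfp934 had an NRI of 0.39 and a log2 RT of 0.91, and the pair Zfp72 and Zfp825 an NRI of 0.64 and a log2 RT of 0.78.

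The single members of chromosome 7 were spread over 9 NRDs and 12 RT domains. Zfp296, which is expressed in ES cells and promotes reprogramming, was in the early domain with the highest value of any member, 1.76, and in a TiNRD with an NRI of 1.18. Zfp541, known for its part in meiosis of spermatocytes, had an NRI of 0.89 and a log2 RT of 1.5. Zfp36 encodes tristetraprolin, which binds mRNA through fingers of the CCCH type and promotes its decay, and had 0 C2H2 fingers, an NRI of 1.11 and a log2 RT of 1.62. Zfp36 carries the name of the family and not its DNA-binding domain.

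Zfp507, Zfp536 and Zfp619 shared a TiNRD of 6000 kb with an NRI of 0.96 and were in 3 different early domains. Their log2 RT was 1.28, 0.84 and 0.28. Zfp619, with 33 fingers the most of any member, had the lowest RT of the early members. Zfp536, a repressor known from neuronal differentiation, lay between them in position and value. Members of 1 tight domain thus ranged from 0.28 to 1.28 in log2 RT.

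The remaining single members of chromosome 7 were all in TiNRDs and early domains. Zfp473, whose product takes part in the processing of histone pre-mRNA, had an NRI of 1.12 and a log2 RT of 1.32. Zfp710 and Zfp592 shared an NRI of 0.82 and a log2 RT of 1.26. Zfp143, a widely expressed activator that binds at promoters, had an NRI of 0.64 and a log2 RT of 1.01, and 1 finger by the pattern but 7 when up to 4 residues were allowed between the cysteines. Zfp511 and Zfp941, in the TiNRD of 1.05 that also held the distal runs, had a log2 RT of 1.05 and 1.07.

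On chromosome 13 the single members ranged from 0.04 to 1.07 in NRI and from 0.78 to 1.24 in log2 RT. Zfp184 had the NRI of 0.04, in a TiNRD of 400 kb that ranked 6 of 632 TiNRDs from the value nearest to 0, so its call was close to the threshold between the kinds, with a log2 RT of 0.89. Zfp346, which binds double-stranded RNA, had an NRI of 1.03 and the highest log2 RT of the chromosome's members, 1.24, and Zfp369 had the highest NRI, 1.07, with a log2 RT of 0.97. Much of the sequence of the TiNRD with Zfp369 is duplicated, as given below. The lowest RT, 0.78, was that of Zfp169, with an NRI of 0.92, and of the pair Zfp72 and Zfp825.

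The other single members of chromosome 13 fell between these values. Zfp808 and Zfp367 were on both sides of the pair Zfp935 and Zfp934 in the same domains, with an NRI of 0.39 and a log2 RT of 0.91. Zfp366, known from dendritic cells, had an NRI of 0.55 and a log2 RT of 0.87. Zfp131 had an NRI of 0.91 and a log2 RT of 1.03. The 7 members with fewer than 3 fingers by the pattern, Zfp36, Zfp143, Zfp511 and Zfp367 among the single and Zfp428, Zfp688 and Zfp935 among the clustered members, were all in TiNRDs and early domains.

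Within 500 kb of their midpoint, clustered members had a median of 31 protein-coding genes and single members 13, a count that includes the neighbours by which a member was called clustered. Clustered genes were shorter, with a median of 13.6 kb against 25.7 kb. They lay closer to an NRD border, at a median of 390 kb against 1479 kb, but not to an RT border, at 636 kb against 457 kb. By chromosome, the NRD border medians were 763 kb against 1759 kb on chromosome 7 and 179 kb against 331 kb on chromosome 13. The clustered members rest on 13 NRDs, and 15 of them lay in 1 LoNRD of 700 kb, whose length limits the distance to its borders. The promoter windows of clustered members held a median of 12.5 CpG (80 genes), and those of single members 18 (15 genes).

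The members in LoNRDs lay in sequence richer in A/T than most members in TiNRDs. Over the 100 kb around the gene, A/T content on chromosome 7 was 58.4 to 60.0% with a median of 59.8% for the 5 members in LoNRDs, and 48.4 to 59.9% with a median of 54.8% for the 84 members in TiNRDs. On chromosome 13 it was 58.6 to 60.1% with a median of 59.4% for the 15 members in the LoNRD, and 55.0 to 60.0% with a median of 58.2% for the 16 in TiNRDs. The ranges overlapped, since 6 of 84 members in TiNRDs of chromosome 7 and 7 of 16 on chromosome 13 were at or above the lowest value in LoNRDs, 58.4%. This A/T level was not particular to the members. All 1345 protein-coding genes in LoNRD and early domains had a median of 59.7%, and the 18 members among them 59.6%. Beside the borders inside the divided runs, A/T was 59.4% at Zfp738 and 60.0% at Zfp65 on chromosome 13. On chromosome 7 it was 59.8% at Zfp977 and 59.6% at Zfp976. Members with midpoints under 100 kb apart share part of their windows. Repeats covered a median of 49.9% of these windows for the LoNRD members of chromosome 7 and 31.7% for those of chromosome 13, against 33.7% and 32.8% in TiNRDs. The part of base composition in the NRD calls was not tested.

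**Figure D4:**
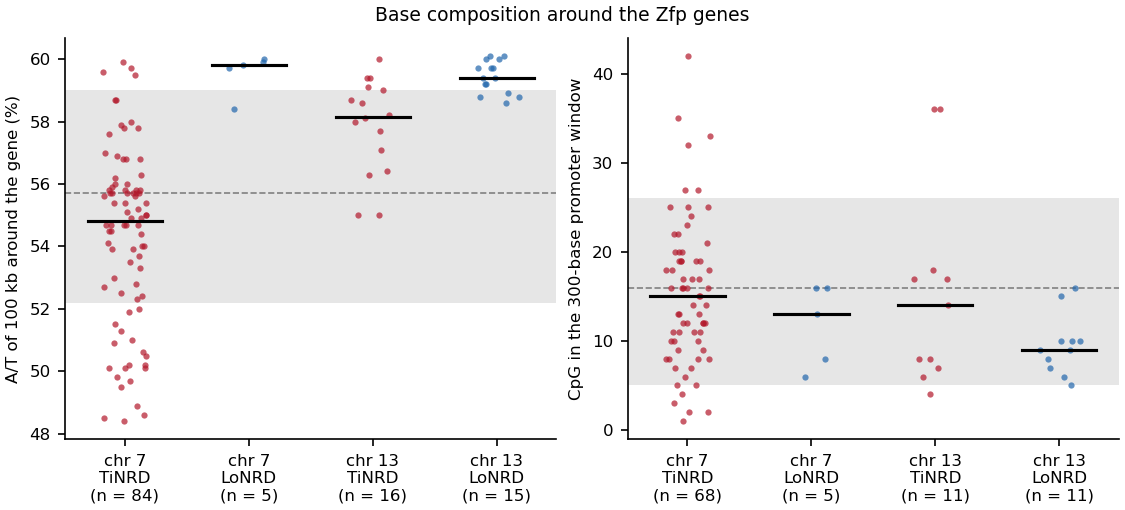
A/T content of the 100 kb around each member (left, %) and number of CpG in its promoter window of 300 bases (right), by chromosome and kind of NRD, with 1 point per member and black lines for medians. The grey band and dashed line are the quartiles and median of all protein-coding genes. Members in LoNRDs (blue) were at 58.4% A/T or more, where 6 members of chromosome 7 and 7 members of chromosome 13 in TiNRDs (red) were also found.

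Duplicated sequence limits how many reads can be placed, and it differed between the domains around the divided runs. Of all 50-mers in the LoNRD of chromosome 13, 86.9% occurred at 1 position of the chromosome, where the share over the whole chromosome was 90.7%. In the TiNRDs on either side the share was 31.3% to the left and 69.3% to the right. The TiNRD to the left is the one that gave Zfp369 its NRI of 1.07, the highest among the members of chromosome 13. On chromosome 7, where the whole chromosome had 86.0%, the LoNRDs with members had 86.5% and 84.1%. The TiNRDs beside them had 37.7% and 84.2% at the pair Zfp551 and Zfp606, and 84.5% and 89.3% at the run Zfp141 to Zfp975. Only the LoNRD with Zfp141 and Zfp977 was thus below both neighbours in unique sequence. That run alone had 76.1% and the pair Zfp935 and Zfp934 49.7%, the lowest of the 17 runs. The part of read placement in the calls was not tested.

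Smaller shares of 2 other clustered families of these chromosomes lay in tight and in early domains, although some shared NRDs with members. Of 244 olfactory receptor genes (Olfr) on chromosome 7, 242 had an NRD call and 58 of these (24.0%) were in TiNRDs, and 46 of 222 with an RT call (20.7%) were early. Of 190 vomeronasal receptor genes (Vmn1r and Vmn2r) on chromosomes 7 and 13, 73 of 186 (39.2%) were in TiNRDs and 33 of 176 (18.8%) were early. Both families encode receptors that are expressed in sensory neurons of the nose. The class of LoNRD and late held 162 of 220 Olfr genes (73.6%) and 88 of 172 vomeronasal genes (51.2%), and 2 of 116 zinc finger members (1.72%). As genes of a domain share its call, these shares rest on 13 NRDs for the Olfr and 23 for the vomeronasal genes. The TiNRD of 0.74 with the runs Zfp787 to Zfp28 and Zfp954 to Zfp772, for example, held 10 members, 18 vomeronasal and 8 Olfr genes.

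**Figure D5:**
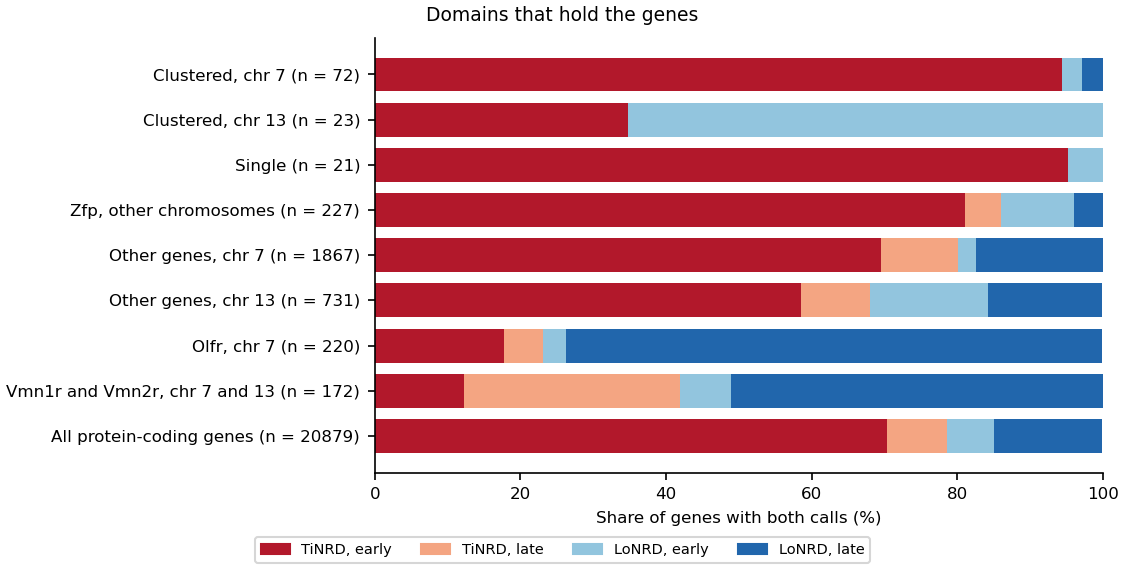
Share (%, bars from 0 to 100) of genes with both calls in each combination of NRD and RT domain, for clustered members of chromosome 7 and 13, single members, Zfp genes of other chromosomes, other genes of both chromosomes, Olfr genes, vomeronasal receptor genes and all protein-coding genes. LoNRD with early (light blue) makes up 65.2% of the clustered members of chromosome 13 and 16.1% of the other genes of that chromosome.

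Zinc finger genes of the same form of symbol on the other chromosomes had a share in TiNRDs near that of all genes. Of 245 such genes, 201 of 243 (82.7%) were in TiNRDs, beside 77.8% of all protein-coding genes, and 209 of 229 (91.3%) were early, beside 76.6%. Among 60 genes of chromosomes 7 and 13 with at least 3 fingers and another form of symbol, 47 (78.3%) were in TiNRDs, and of the 58 with an RT call 48 (82.8%) were early. The calls of these genes corresponded for 37 of 58 (63.8%). LoNRD with early held 12 of 58 (20.7%) and TiNRD with late 9 of 58 (15.5%). These shares rest on 21 NRDs and 17 RT domains, and 9 of the 10 late genes were in the late domain of Zfp551 and Zfp606. The 245 Zfp genes of the other chromosomes were also divided by the same distance of 200 kb. Of those with an RT call, 123 of 123 clustered and 86 of 106 single genes (81.1%) were early. LoNRD with early held 17 of 121 clustered (14%) and 6 of 106 single genes (5.66%) of these other chromosomes. On chromosome 13 the class held 118 of 731 genes that are not members (16.1%), among them the 7 other zinc finger genes of the LoNRD, and on chromosome 7 it held 46 of 1867 (2.46%). Over all protein-coding genes, those with at least 3 fingers made up 2.66% in all, 2.80% in TiNRD and early domains, 1.79% in TiNRD and late, 6.10% in LoNRD and early (82 of 1345 genes), and 0.674% in LoNRD and late. The 22 such genes of the chromosome 13 LoNRD are included in the 82.

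The partners through which KRAB zinc finger proteins act lay in early domains as well. All 19 genes of a list of corepressor components were matched, 15 in TiNRDs (78.9%, beside 77.8% of all protein-coding genes) and 4 in LoNRDs, and 19 of 19 were early, beside 76.6%. Trim28, the scaffold that the KRAB box binds, is itself on chromosome 7, beyond Zfp446 in the TiNRD of 0.45 and the early domain of 1.16 that hold the run from Zfp329 to Zfp446. The histone methyltransferase Setdb1 had an NRI of 0.73 and a log2 RT of 1.31. The 4 in LoNRDs were the remodellers Atrx (NRI −0.37, log2 RT 1.01) and Smarcad1 (−0.71 and 0.93), the deacetylase Hdac2 (−0.80 and 0.12) and the silencing factor Resf1 (−0.46 and 0.99).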

How the data were processed

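The authors trimmed reads with cutadapt 4.3, aligned them to mm10 with Bowtie2 2.5.1, and marked duplicates with Picard. The deposited NRD list gives each domain a score, the NRI, called with FindHiCCompartments of homer2 from smoothed 100 kb bins. The deposited RT list gives each domain a log2 ratio, (S1 + S2) over (S3 + S4) in 50 kb windows after quantile normalization. How a domain's value was made from its bins, and whether experiments were pooled for a list, is not given in the sources used here. The other libraries of the 39 samples were not analysed here.

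Domains were joined to GENCODE vM21 genes (GRCm38, the build of mm10) by gene midpoint with Python 3.11.15, pandas 2.3.3 and numpy 2.4.6. Exactly "Zfp" and digits made a member, so 8 symbols with a trailing letter were left out. Fingers were counted in the longest coding sequence translated from the genome. The members and lists were chosen with earlier results of these data known. Named are all single members, the first and last of each run, members in domains with extreme values, without a call, with calls that do not correspond, or beside borders. With 1 call per list there was no test, and shares are descriptions. The assignment was tested on simulated domains and genes.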

Additional observations from a re-analysis of the deposited data

How the results depend on the processing

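A share was counted as moved when it left the exact 95% binomial interval of the value reported, an interval that treats members as independent although members of a domain share a call. Of 53 alternatives 42 stayed inside and 11 moved. The share of members in TiNRDs, 83.3%, became 94.2% without the longest run of each chromosome. Chosen after seeing the data, it became 95% without the run Zfp712 to Zfp273 and 100% among the 90 members in NRDs with an NRI of at least 0.5 in size, a value this limit fixes, since all 3 LoNRDs with members are below it. The run was left out because of its LoNRD calls, so the direction of those changes was fixed too. Without the same run, calls corresponded for 96.9% of members, not 84.5%. The share of clustered members in TiNRDs, 80.8%, became 93.8% without the longest runs, 95% without the run Zfp712 to Zfp273, 94.7% on chromosome 7 and 34.8% on chromosome 13. For single members 95.2% became 100% on chromosome 13 and, chosen after seeing the data, 100% when any gene with at least 3 fingers counted as a neighbour. Clustered members in early domains, 97.9%, became 100% on chromosome 13. The share of all members in early domains stayed between 97.3 and 98.4%. Since no gene body crossed a border, placing the members by transcription start or by the largest part of the body could not change a call. The planned neighbour alternative with RefSeq proteins was run with translated GENCODE coding sequences. No paired analysis was possible because the lists analysed here are single calls with no replicate columns. Depth per domain is unknown, and 30 members lie in NRDs with an NRI under 0.5 in size, among them all 20 in LoNRDs.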
